A study of Mus musculus with 3 samples.

Results

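The cells described here were barcodes with the transcripts of atrial heart muscle, picked out of single-cell libraries of the mouse left ventricle. They numbered 72 of 61034 barcodes that passed the quality limits, a barcode being the tag of 1 droplet, which usually holds 1 cell. The barcodes were chosen by UMIs, molecules each counted once through a molecular identifier. A chosen barcode held no fewer than 500 UMIs from no fewer than 300 genes, and mitochondrial genes gave no more than 50% of them. It also had at least 10 UMIs summed over the atrial genes Myl7, Sln and Nppa, and at least 10 summed over the muscle genes Tnnt2, Actc1 and Tnni3. Barcodes with more than 1 UMI of the leukocyte gene Ptprc, or with more than 1 of the endothelial genes Pecam1 and Cdh5 together, were left out. The choice therefore rested on measured values, and what follows about those genes describes the choice.

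The study compared 3 groups of C56Bl6 mice. HFpEF-FoxO1-sh mice received a high-fat diet with L-NAME, an inhibitor of nitric oxide synthesis, for 6 weeks and an AAV vector carrying a short hairpin against FoxO1 for 4 weeks. HFpEF-scr mice had that diet for the same time and AAV with a scrambled hairpin for 4 weeks. Control mice ate standard chow for 10 weeks, and the labels name no vector for them, so that diet and vector cannot be told apart between HFpEF-scr and Control. HFpEF stands for heart failure with preserved ejection fraction, and the title of the series names FoxO1 and arrhythmia in that condition. Each group was 1 library made from 4 pooled samples, so the libraries have no replicate and no p-value is given for any difference between them. The cells were passed through a 70 µm strainer meant to take cardiomyocytes out, so those described here are what remained. The promoter that drives the hairpin is not given in the sources used here.

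Atrial cardiomyocytes build their sarcomeres with their own light chains, Myl7 and Myl4, where working ventricular cells use Myl2 and Myl3. They also make sarcolipin (Sln), a small inhibitor of the calcium pump of the sarcoplasmic reticulum, and store atrial natriuretic peptide (Nppa), a hormone released on stretch that lowers blood volume. Pacemaker and conduction cells of the heart are related muscle cells marked by Hcn4, a channel of the pacemaker current, and by transcription factors such as Tbx3 and Shox2 that hold back the working atrial program.

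The 72 barcodes were 24 of 20378 in HFpEF-FoxO1-sh (0.118%, exact 95% interval 0.0755 to 0.175), 23 of 21247 in HFpEF-scr (0.108%, 0.0686 to 0.162) and 25 of 19409 in Control (0.129%, 0.0834 to 0.19). The shares differed by less than their counting intervals, which here and below cover counting error only. The atrial sum separated them clearly from other muscle barcodes. Its lowest value in a chosen barcode was 18 UMIs in HFpEF-FoxO1-sh, 23 in HFpEF-scr and 28 in Control, while the highest among muscle barcodes below the limit was 0, 2 and 8 in the same order. The muscle limit left out 45, 20 and 43 barcodes that met every other condition. Their muscle sums reached 9, 7 and 9 UMIs, against lowest chosen sums of 17, 13 and 22. The chosen barcodes held 143251 UMIs in HFpEF-FoxO1-sh, 141860 in HFpEF-scr and 202356 in Control. Their median depth was 2840, 4342 and 7634 UMIs, so depth moved with the group. The whole libraries held 144561934, 154385813 and 146230530 UMIs, with medians of 6272, 5779 and 6097 UMIs per barcode. Libraries shared 238 to 335 barcode sequences by pair, and none of the shared ones was an atrial-rule barcode in both libraries. Scrublet, a caller of doublets, marked 3.22 to 3.61% of the barcodes and 1 of the 72, in HFpEF-FoxO1-sh, which was kept. Median doublet scores were higher in the atrial-rule barcodes, at 0.207 in HFpEF-FoxO1-sh, 0.131 in HFpEF-scr and 0.216 in Control. In all barcodes they were 0.0821, 0.0689 and 0.065.

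Of the 72, 68 carried Myl7, Sln and Myl4 together, of which Myl7 and Sln were part of the choice and Myl4 was not. Myl7 UMIs per barcode (lowest, median, highest) were 0, 60 and 851 in HFpEF-FoxO1-sh, 12, 101 and 598 in HFpEF-scr, and 0, 141 and 608 in Control. For Myl4 they were 0, 54.5 and 422 in HFpEF-FoxO1-sh, 10, 63 and 221 in HFpEF-scr, and 0, 88 and 364 in Control. The zeros belong to the other 4 barcodes, 1 in HFpEF-FoxO1-sh and 3 in Control. Those 4 had no UMI of Myl7, Sln or Myl4 and entered through Nppa alone, with 32 Nppa UMIs in HFpEF-FoxO1-sh and 93, 28 and 43 in Control. They carried the ventricular light chain Myl2 at 73 UMIs in HFpEF-FoxO1-sh and at 262, 77 and 91 in Control, with Myl3 at 24 and at 94, 30 and 34. The data thus go against the atrial label for these 4, which are ventricular in their light chains and hold Nppa.

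**Figure D1:**
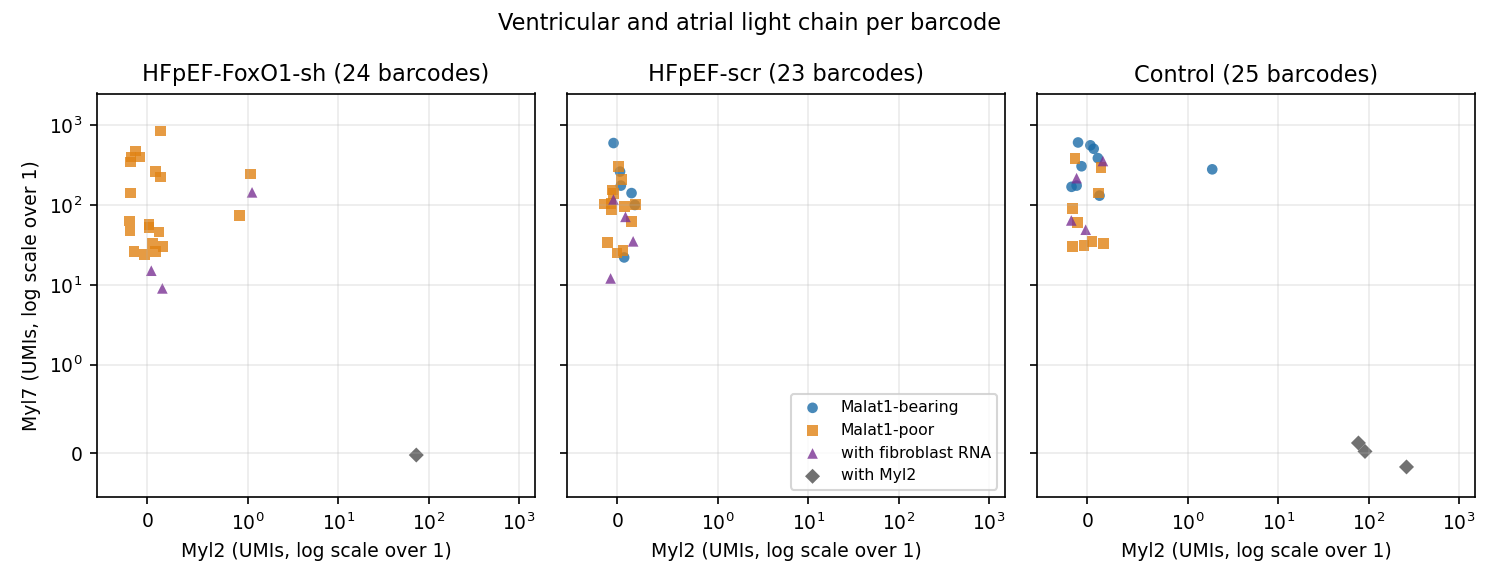
Myl2 (x axis) and Myl7 (y axis) UMIs in each of the 72 barcodes, both on a log scale over 1 with a small jitter so that equal points can be told apart, 1 panel per library. Points at the bottom right are the 4 barcodes with 73 to 262 Myl2 UMIs and no Myl7, and the remaining 68 lie at the left with Myl7.

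Myl4, Mybphl and Stard10, which the choice did not use, were higher in the members than in ventricular-like muscle barcodes of the same libraries. These comparison barcodes passed the muscle limit, missed the atrial one and had at least 10 Myl2 UMIs. They numbered 51 in HFpEF-FoxO1-sh, 13 in HFpEF-scr and 24 in Control. Levels are given as CPM, the UMIs of a gene per 1000000 non-mitochondrial UMIs summed over the barcodes of a set. Myl4 stood at 21210 CPM in the atrial-rule barcodes and 238 CPM in the ventricular-like ones of HFpEF-FoxO1-sh, at 16731 and 81.4 CPM in HFpEF-scr, and at 20420 and 0 CPM in Control. Mybphl, a myosin-binding protein of atrial and conduction muscle, had 67, 49 and 104 UMIs in the atrial-rule barcodes (531, 445 and 668 CPM in HFpEF-FoxO1-sh, HFpEF-scr and Control) and 0 UMIs in every ventricular-like set. Stard10, a lipid transfer protein, reached 943, 772 and 925 CPM against 116, 20.4 and 187 CPM. The transcription factor Tbx5 was found in 10, 9 and 13 atrial-rule barcodes, and in 1, 0 and 3 ventricular-like ones. The ventricular-like barcodes were shallower, with median depths of 1707, 2125 and 2710 UMIs against 2840, 4342 and 7634. Depth thus limits what these Tbx5 counts can show. The kinase genes Sbk2 and Sbk3 were low, at 13 and 18 UMIs in HFpEF-FoxO1-sh, 18 and 28 in HFpEF-scr, and 27 and 50 in Control. Among ventricular genes Irx4 had no UMI in any of the 72, and Hey2 had 2, both in HFpEF-scr. Phospholamban (Pln), listed with the ventricular markers, was not absent, with 3042 CPM and a UMI in 21 of 24 HFpEF-FoxO1-sh barcodes. Levels of these genes in the ventricular-like sets are not given here, so they show no separation.

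Atrial transcripts were rare in barcodes of other cell types. Among barcodes with fibroblast transcripts, which should not make Myl7, it was seen in 1.46% of HFpEF-FoxO1-sh barcodes, 0.835% of HFpEF-scr and 2.26% of Control, at median depths of 6903, 6435 and 6750 UMIs. Sln was seen there in 0.311%, 0.503% and 0.673%, Nppa in 0.631%, 0.521% and 1.55%, and Myl4 in 3.08%, 2.88% and 2.93%. Barcodes that met the atrial rule were left out of this fibroblast set, which could hold down its atrial counts. Single barcodes of the set held up to 99, 44 and 108 Myl7 UMIs, against at most 5, 5 and 4 of Sln. Myl7 alone thus did not set the atrial-rule barcodes apart. In leukocyte barcodes, those with at least 3 Ptprc UMIs, Myl7 was seen in 0.87%, 1.18% and 1.03%. Single leukocyte barcodes held up to 47, 100 and 4 Myl7 UMIs and up to 57, 62 and 3 of Sln. Mitochondrial UMIs took a median of 19.7%, 19.9% and 25.1% of the atrial-rule barcodes against 10%, 14.8% and 15.5% of all barcodes.

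The 72 barcodes fell into groups by Malat1, a long noncoding RNA kept in the nucleus. The split described next was drawn after the data had been seen. Malat1 reached at least 10 UMIs in 92.7%, 91.2% and 92.4% of all barcodes past the limits in HFpEF-FoxO1-sh, HFpEF-scr and Control. In the atrial-rule barcodes it was at most 1 UMI in 46 of 72 and at least 17 UMIs in the other 26, with none in between. Barcodes with at most 1 Malat1 UMI, at most 2 UMIs of fibroblast markers and under 10 Myl2 UMIs are called Malat1-poor, and number 42. Those with at least 10 Malat1 UMIs under the same limits are called Malat1-bearing, and number 15. A further 11 carried more fibroblast RNA, and the 4 barcodes with Myl2 make up the rest.

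Malat1-bearing barcodes numbered 0 of 24 in HFpEF-FoxO1-sh (exact 95% interval 0 to 14.2%), 6 of 23 in HFpEF-scr (26.1%, 10.2 to 48.4) and 9 of 25 in Control (36%, 18 to 57.5). Malat1-poor barcodes numbered 20 in HFpEF-FoxO1-sh (83.3%, 62.6 to 95.3), 13 in HFpEF-scr (56.5%, 34.5 to 76.8) and 9 in Control (36%, 18 to 57.5). The makeup of the atrial-rule barcodes thus moved with the group. Whether that reflects the mice or the making of the libraries cannot be told apart with 1 library per group. Its part in the differences below was not tested. Malat1-bearing barcodes were deeper, with a median of 12437 UMIs and 2808 genes, against 2637 UMIs and 751 genes in Malat1-poor ones, at median mitochondrial shares of 25.1% and 22.6%.

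The split divided the muscle transcripts as well. Myh6, the alpha myosin heavy chain, stood at 13065 CPM in the 15 Malat1-bearing barcodes, with a UMI in all 15 and a median of 112 UMIs. In the 42 Malat1-poor ones it stood at 3115 CPM, with a UMI in 28 and a median of 1. Titin (Ttn), the giant spring of the sarcomere, stood at 9889 and 1695 CPM, with medians of 80 and 0 UMIs. Further genes, chosen after their values had been seen, were also higher in the Malat1-bearing barcodes. The calcium pump Atp2a2 stood at 12793 and 2250 CPM, the calcium release channel Ryr2 at 1223 and 239, the potassium channel Kcnj3 at 715 and 127, lipoprotein lipase (Lpl) at 1105 and 246, and the peptide-amidating enzyme Pam at 4193 and 1188. Others chosen in the same way were lower. Myl7 stood at 32578 CPM in Malat1-bearing and 44781 CPM in Malat1-poor barcodes, Myl4 at 19926 and 29275, Sln at 11768 and 24592, troponin I (Tnni3) at 10508 and 17123, myoglobin (Mb) at 5733 and 9529, phospholamban (Pln) at 1636 and 3748, the fatty acid carrier Fabp3 at 2491 and 5457, and Cox6c of the respiratory chain at 5379 and 8059. Actc1, the cardiac actin, was close at 6463 and 6863 CPM. The split was not clean for every barcode. In HFpEF-scr, 2 Malat1-bearing barcodes with 3854 and 4916 UMIs had 3 and 7 Myh6 UMIs, while 1 Malat1-poor barcode had 230.

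**Figure D2:**
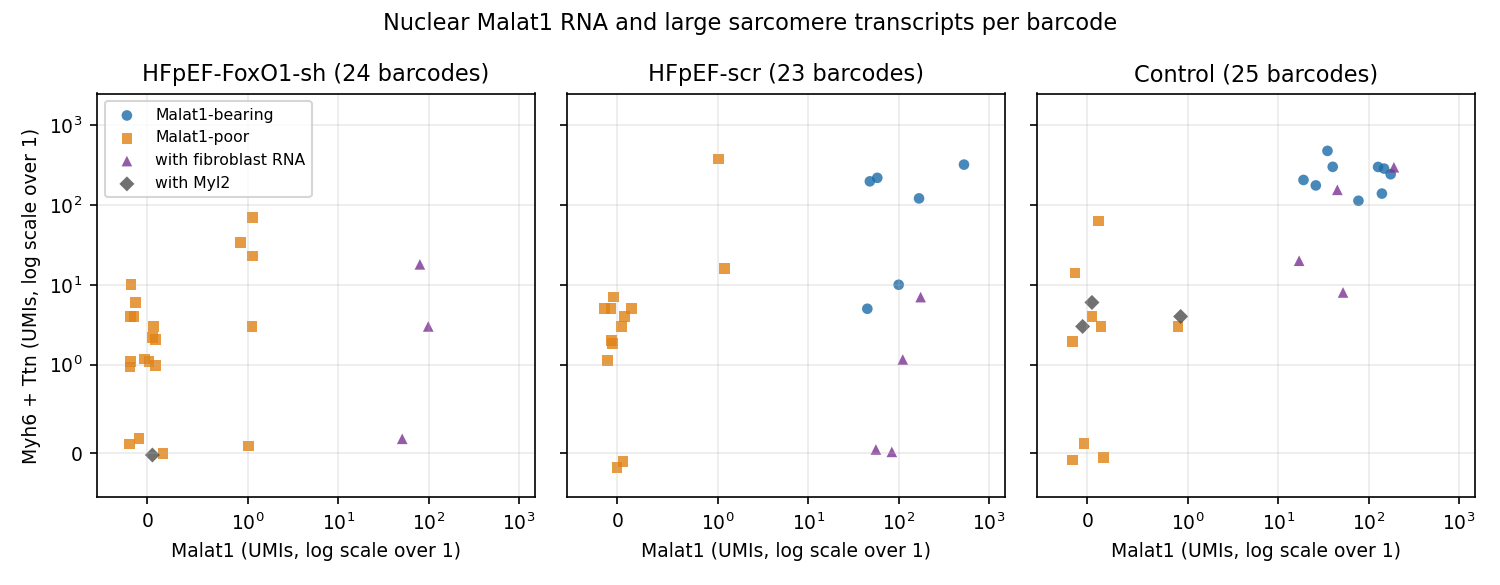
Malat1 UMIs (x axis) and summed Myh6 and Ttn UMIs (y axis) in each barcode, both on a log scale over 1 with a small jitter, 1 panel per library and 1 marker per kind of barcode. No Malat1-bearing point appears in HFpEF-FoxO1-sh, where HFpEF-scr has 6 and Control 9, and 13 of those 15 lie above 100 UMIs of Myh6 and Ttn.

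Foxo1, the target of the hairpin, was too rare in these barcodes to check the knockdown. It had 3 UMIs in 2 barcodes of HFpEF-FoxO1-sh (23.8 CPM), 1 UMI in 1 barcode of HFpEF-scr (9.08 CPM) and 4 UMIs in 3 barcodes of Control (25.7 CPM). The CPM ratio was 2.62 for HFpEF-FoxO1-sh over HFpEF-scr, with an exact 95% interval of 0.21 to 137, and 0.354 for HFpEF-scr over Control, with an interval of 0.00718 to 3.57. Barcodes with fibroblast transcripts held Foxo1 at 69.5, 64.9 and 71.8 CPM in HFpEF-FoxO1-sh, HFpEF-scr and Control, and in that set the 3 libraries lay close together. Foxo3, a relative with overlapping targets, had 0, 7 and 4 UMIs in the atrial-rule barcodes.

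The atrial light chains and sarcolipin differed by less than 2-fold between the libraries over all the barcodes. Myl7 stood at 31605 CPM in HFpEF-FoxO1-sh, 27059 CPM in HFpEF-scr and 31539 CPM in Control, a log2 ratio of 0.22 for HFpEF-FoxO1-sh over HFpEF-scr and -0.22 for HFpEF-scr over Control. Sln stood at 16432, 13743 and 14363 CPM, with log2 ratios of 0.26 and -0.06, and Myl4 had log2 ratios of 0.34 and -0.29. Within Malat1-poor barcodes Myl4 stood at 29355 CPM in HFpEF-FoxO1-sh, 28555 CPM in HFpEF-scr and 30088 CPM in Control, and Sln at 22267, 26724 and 30000 CPM in the same order. Within Malat1-bearing barcodes Myl7 stood at 28113 CPM in HFpEF-scr and 34881 CPM in Control (log2 ratio -0.31), Myl4 at 14793 and 22572 CPM (-0.61), and Sln at 8469 and 13470 CPM (-0.67). Brain natriuretic peptide (Nppb), another stretch hormone, had 309, 245 and 257 CPM over all the barcodes.

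**Figure D3:**
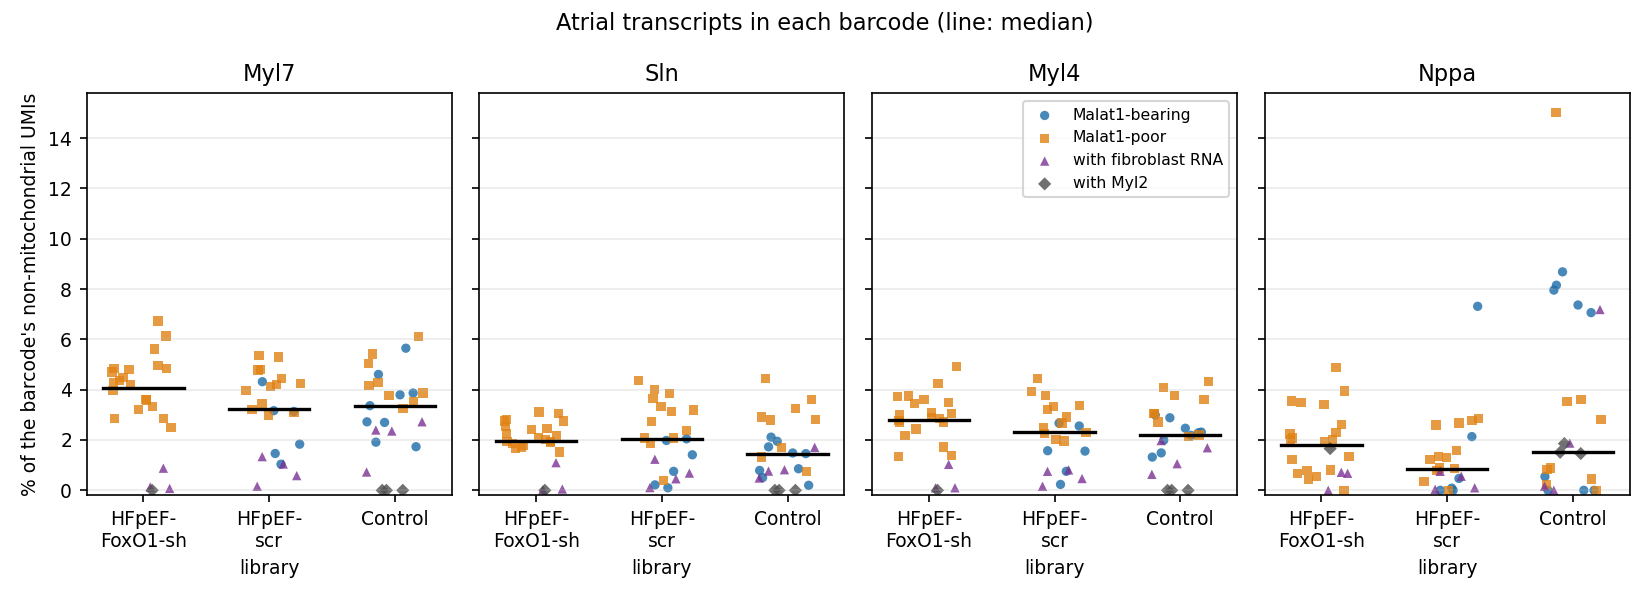
Share of each barcode's non-mitochondrial UMIs (y axis, %) taken by Myl7, Sln, Myl4 and Nppa, by library along the x axis, with a line at the median and a marker for each kind of barcode. Myl7, Sln and Myl4 overlap across the libraries, while a separate group of Nppa values near 7 to 9% lies mostly in Control.

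Nppa spread widely between barcodes. Its UMIs per barcode (lowest, median, highest) were 0, 34 and 370 in HFpEF-FoxO1-sh, 0, 13 and 399 in HFpEF-scr, and 0, 34 and 1087 in Control. Summed, it stood at 15442 CPM in HFpEF-FoxO1-sh, 9447 CPM in HFpEF-scr and 39606 CPM in Control, a log2 ratio of 0.71 for HFpEF-FoxO1-sh over HFpEF-scr (ratio interval 1.52 to 1.76) and -2.07 for HFpEF-scr over Control (0.223 to 0.255). Barcodes without any Nppa UMI numbered 2, 3 and 5, all of them with Myl7. The medians were equal in HFpEF-FoxO1-sh and Control, so the summed level in Control rested on few barcodes.

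Those few were the ones with Bmp10, a secreted factor of the BMP family that in mice is made by atrial muscle, mainly of the right atrium. The set was singled out after the values had been seen. In all, 7 barcodes had at least 10 Bmp10 UMIs, 0 in HFpEF-FoxO1-sh, 1 in HFpEF-scr and 6 in Control, and each of them had at least 399 Nppa UMIs. Nppa stood at 73130 CPM (399 UMIs) in the barcode of HFpEF-scr and at 77199 CPM (interval 75177 to 79263) in the 6 of Control, where it ranged over 707 to 1087 UMIs. Bmp10 itself had 16 UMIs in the barcode of HFpEF-scr and 17 to 42 in those of Control. Outside this set Bmp10 had at most 1 UMI in a barcode. With the 7 left out, Nppa stood at 15442 CPM in HFpEF-FoxO1-sh, 6126 CPM in HFpEF-scr and 7653 CPM in Control, so that the log2 ratio became 1.33 between HFpEF-FoxO1-sh and HFpEF-scr, in place of 0.71, and -0.32 between HFpEF-scr and Control, in place of -2.07. With the 5 Hcn4 carriers described further on also left out, 3 of which are HFpEF-scr barcodes without Nppa, it stood at 15442 CPM in HFpEF-FoxO1-sh, 8964 CPM in HFpEF-scr and 8667 CPM in Control. In Malat1-bearing barcodes Nppa stood at 11089 CPM in HFpEF-scr and 51567 CPM in Control, a log2 ratio of -2.22. Of the 7, 1 in HFpEF-scr and 5 in Control are Malat1-bearing. In Malat1-poor barcodes, which hold none of the 7, Nppa stood at 20306 CPM in HFpEF-FoxO1-sh, 11874 CPM in HFpEF-scr and 17389 CPM in Control.

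**Figure D4:**
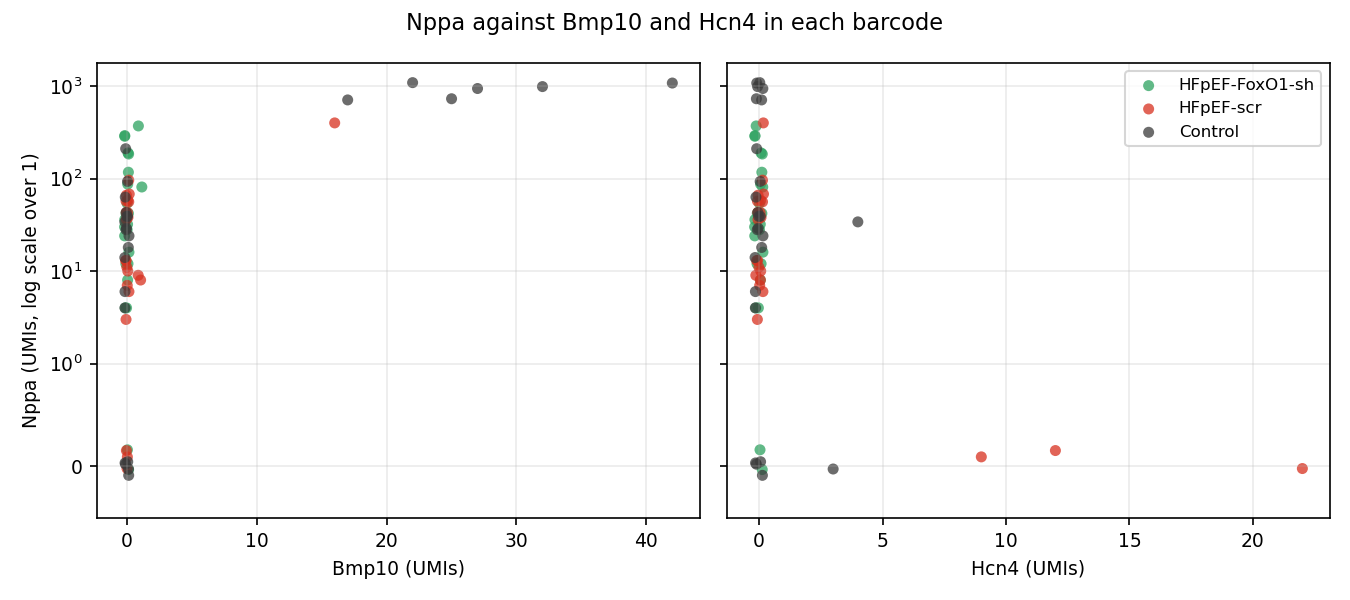
Nppa UMIs (y axis, log scale over 1) against Bmp10 UMIs (left) and Hcn4 UMIs (right) in each barcode, with small jitter, coloured by library. The 7 barcodes with 16 to 42 Bmp10 UMIs have 399 to 1087 Nppa UMIs, and the 5 with 3 to 22 Hcn4 UMIs have 0 to 34.

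Nppa and Myl7 were both part of the choice. Over the 72 barcodes Nppa ranged over 0 to 1087 UMIs and Myl7 over 0 to 851. The stretches before these 2 genes are shown as description only. Both are the 250 bases before the annotated start, on the gene's strand, from RefSeq on GRCm38.p6, at chr4:148000472-148000721 (plus strand) for Nppa and chr11:5898783-5899032 (minus strand) for Myl7. Capitals mark matches, sought on both strands, to the T-box factor letters TCACACC, the Nkx2-5 letters TGAAGTG, the letters TGATAA and AGATAA of the GATA factors, the TEAD factor letters CATTCC and the core promoter letters TATAAA.
Nppa: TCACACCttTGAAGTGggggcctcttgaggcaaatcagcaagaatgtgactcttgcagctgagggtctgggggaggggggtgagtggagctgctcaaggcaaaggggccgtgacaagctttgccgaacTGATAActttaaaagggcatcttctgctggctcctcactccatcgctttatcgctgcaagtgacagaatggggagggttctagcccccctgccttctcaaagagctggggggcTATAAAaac
Myl7: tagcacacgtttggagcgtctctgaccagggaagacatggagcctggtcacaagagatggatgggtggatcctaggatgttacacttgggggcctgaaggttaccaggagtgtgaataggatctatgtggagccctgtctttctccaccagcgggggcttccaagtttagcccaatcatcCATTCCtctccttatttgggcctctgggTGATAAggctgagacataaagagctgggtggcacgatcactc
Nppa held the T-box, Nkx2-5, TGATAA and TATAAA letters, at -250 to -244, -241 to -235, -122 to -117 and -9 to -4 from the start. Myl7 held CATTCC at -70 to -65 and TGATAA at -42 to -37. Of 32536 promoter windows of the same length, TCACACC was in 3.33%, TGAAGTG in 3.31%, TGATAA in 7.79%, AGATAA in 9.97%, CATTCC in 12.6% and TATAAA in 12.3%. No match overlapped another. A match describes letters and is no evidence of binding.

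Over all the barcodes Bmp10 had 2, 18 and 165 UMIs in HFpEF-FoxO1-sh, HFpEF-scr and Control. Hamp, the iron hormone hepcidin, had 28, 6 and 87 UMIs, with 29 in each of 2 Control barcodes, 1 of which had 42 Bmp10 UMIs and the other 0. Dkk3, a secreted modulator of Wnt signals, had 10, 17 and 72 UMIs, and was found in 3, 6 and 11 barcodes. Kcnj3 and Kcnj5, which together form the atrial potassium channel opened by acetylcholine, had 5 and 5 UMIs in HFpEF-FoxO1-sh, 31 and 11 in HFpEF-scr, and 98 and 31 in Control. For Kcnj3 this is a log2 ratio of -2.83 for HFpEF-FoxO1-sh over HFpEF-scr (ratio interval 0.0427 to 0.365) and -1.16 for HFpEF-scr over Control (0.289 to 0.676). In Malat1-poor barcodes without the Hcn4 carriers described next, Kcnj3 came to 4 UMIs in each library, which is 47.3 CPM in HFpEF-FoxO1-sh, 145 CPM in HFpEF-scr and 177 CPM in Control. The log2 ratio there was -1.61 for HFpEF-FoxO1-sh over HFpEF-scr (ratio interval 0.0608 to 1.75) and -0.29 for HFpEF-scr over Control (0.152 to 4.39).

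A different set of 5 barcodes carried at least 3 UMIs of the pacemaker channel Hcn4, 0 in HFpEF-FoxO1-sh, 3 in HFpEF-scr and 2 in Control. It too was singled out after the values had been seen. These 5 barcodes held 7881 to 17272 UMIs and the 7 Bmp10 carriers 9392 to 19713, against a median of 2840 in HFpEF-FoxO1-sh. Depth thus limits what the 0 for Hcn4 and for Bmp10 carriers in HFpEF-FoxO1-sh can mean. Hcn4 had 22, 9 and 12 UMIs in the barcodes of HFpEF-scr, and 3 and 4 in those of Control. Fibroblast barcodes held Hcn4 in at most 0.0792%. All 5 had Myl7, at 302, 175 and 598 UMIs in HFpEF-scr and 131 and 169 in Control, and all had Sln. Nppa had no UMI in the 3 of HFpEF-scr and 0 and 34 in those of Control. Myoglobin was nearly missing, at 0, 0 and 1 UMIs in HFpEF-scr and 2 and 4 in Control. Other genes of the conduction list appeared beside Hcn4. Tbx3 had 3, 0 and 6 UMIs in HFpEF-scr and 2 and 0 in Control, and Shox2 had 6, 1 and 7 in HFpEF-scr and 0 and 4 in Control. Contactin-2 (Cntn2), a surface protein of conduction cells, had 11, 0 and 6 UMIs in HFpEF-scr and 13 and 5 in Control. Igfbp5, a binding protein of insulin-like growth factors, had 85, 2 and 75 UMIs in HFpEF-scr and 29 and 16 in Control, and the smooth muscle actin Acta2 had 75, 33 and 74 UMIs in HFpEF-scr and 0 and 15 in Control. The HFpEF-scr barcode with 9 Hcn4 UMIs also had 29 UMIs of Lyz2, a macrophage gene.

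RNA of other cell types was found in 11 barcodes with more than 2 fibroblast UMIs, 3 in HFpEF-FoxO1-sh, 4 in HFpEF-scr and 4 in Control. Their fibroblast UMIs were 387, 118 and 170 in HFpEF-FoxO1-sh, 94, 104, 171 and 3 in HFpEF-scr, and 19, 216, 46 and 57 in Control. The summed fibroblast list took 0.702% of the UMIs in HFpEF-FoxO1-sh, 0.471% in HFpEF-scr and 0.286% in Control. The HFpEF-FoxO1-sh barcode with 118 fibroblast UMIs also had 57 Lyz2, 37 C1qa and 49 Pf4 UMIs and a doublet score of 0.558, and the one with 170 had 2360 UMIs of the globin Hbb-bs. In that barcode Myl7 had 15 UMIs, Sln 3 and Nppa 0, and in the HFpEF-scr barcode with 171 fibroblast UMIs Myl7 had 12 and Sln 8, so that the values of these barcodes also go against the atrial label. The macrophage list took 0.116%, 0.0772% and 0.00257%, the mural list 0.00872%, 0.449% and 0.0469%, the erythroid and neutrophil list 2.56%, 0.00908% and 0.0347%, and the list of Schwann, mesothelial, platelet and lymphocyte markers 0.0396%, 0.0173% and 0.00128%. Endothelial markers, partly held down by the choice, took at most 0.0118%, and proliferation markers had none. In Malat1-poor barcodes fibroblast markers, held down by the definition of that set, took at most 0.0133%, and macrophage markers at most 0.00572%. Mural markers took 0.0106% in HFpEF-FoxO1-sh, 0.28% in HFpEF-scr and 0.0398% in Control there. Erythroid and neutrophil markers took 0.00945%, 0.00858% and 0.19% in the same order.

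Over all the barcodes, HFpEF-FoxO1-sh had lower levels of Myh6, Ttn, Atp2a2, Ryr2 and Cd36 than HFpEF-scr. Genes with at least 20 UMIs over both libraries are called measured, and those with a CPM ratio of at least 2 either way are called higher or lower. Of 1593 measured genes, 76 were higher (4.77%) and 272 lower (17.1%) in HFpEF-FoxO1-sh. Myh6 had 140 UMIs in HFpEF-FoxO1-sh and 744 in HFpEF-scr (1109 and 6758 CPM), a log2 ratio of -2.61 with a ratio interval of 0.136 to 0.197. Ttn had 47 and 567 UMIs (372 and 5150 CPM), a log2 ratio of -3.79. Atp2a2 had 121 and 706 UMIs, a log2 ratio of -2.74, and Ryr2 had 22 and 58, a log2 ratio of -1.60. The fatty acid transporter Cd36 had 8 and 60 UMIs, a log2 ratio of -3.10. Of the Cd36 UMIs of HFpEF-scr, 13, 11 and 16 lay in the 3 Hcn4 carriers and 15 in 1 other barcode. With the Bmp10 and Hcn4 carriers left out, Myh6 stood at 1109 CPM in HFpEF-FoxO1-sh and 2377 CPM in HFpEF-scr, Ttn at 372 and 1412 CPM, and 10.2% of 1272 measured genes were lower.

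Within Malat1-poor barcodes the difference in Myh6 and Ttn lay mostly in 1 barcode. Of 722 measured genes, 50 were higher (6.93%) and 43 lower (5.96%) in HFpEF-FoxO1-sh. Myh6 still differed, with 1441 CPM in HFpEF-FoxO1-sh and 7639 CPM in HFpEF-scr, but 86.1% of the Myh6 UMIs and 92% of the Ttn UMIs of HFpEF-scr lay in the barcode with 22 Hcn4 UMIs. With it left out, Myh6 stood at 1441 CPM in HFpEF-FoxO1-sh and 1339 CPM in HFpEF-scr, a log2 ratio of 0.11 (ratio interval 0.74 to 1.6), and Ttn at 520 and 470 CPM, a log2 ratio of 0.14 (0.585 to 2.24). These intervals cover counting error only, so they cannot exclude a fall of 2-fold. In HFpEF-FoxO1-sh, 1 barcode held 40 of the 122 Myh6 UMIs. Atp2a2 was higher in HFpEF-FoxO1-sh there, with 111 and 12 UMIs, 1311 CPM in HFpEF-FoxO1-sh and 434 CPM in HFpEF-scr. Its log2 ratio was 1.59 (ratio interval 1.66 to 6.02), and 65.8% of the HFpEF-FoxO1-sh UMIs lay in 1 barcode. Ryr2 and Cd36 also went the other way from all the barcodes, on few counts. Ryr2 had 18 and 2 UMIs, a log2 ratio of 1.56 (0.703 to 26.1), and Cd36 had 7 and 0 UMIs.

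Energy genes differed in both directions between HFpEF-FoxO1-sh and HFpEF-scr in the Malat1-poor barcodes. Fabp3 stood at 6225 CPM in HFpEF-FoxO1-sh and 3763 CPM in HFpEF-scr without the Hcn4 carrier, a log2 ratio of 0.73 (ratio interval 1.34 to 2.06). The ADP/ATP carrier Slc25a4 stood at 12746 and 8756 CPM, a log2 ratio of 0.54 (1.27 to 1.68). The mitochondrial creatine kinase Ckmt2 had 50 and 5 UMIs (591 and 181 CPM), a log2 ratio of 1.71 (1.31 to 10.5), which is past 2-fold. Myoglobin stood at 8812 and 11832 CPM, a log2 ratio of -0.43 (0.653 to 0.851), and Ckm, the muscle creatine kinase, at 1193 and 796 CPM, a log2 ratio of 0.58 (0.938 to 2.5). Sln and the Z-disc protein Tcap lay below HFpEF-scr, at log2 ratios of -0.56 and -0.60. Pum3, an RNA-binding protein, had 44 and 2 UMIs in all Malat1-poor barcodes, a log2 ratio of 3.18, with 47.7% of its HFpEF-FoxO1-sh UMIs in 1 barcode.

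Beside Control barcodes, HFpEF-scr barcodes had lower levels of Nppa, Bmp10, Hamp, Pam, Ckm and Ckmt2 in the summed counts. Egr1 and Fos were higher, with most of their HFpEF-scr UMIs in barcodes with fibroblast RNA. Of 1956 measured genes, 180 were higher (9.2%) and 119 lower (6.08%) in HFpEF-scr. Lower beside Nppa, Bmp10 and Hamp were Pam, at 1471 CPM in HFpEF-scr and 4092 CPM in Control (log2 ratio -1.48), Ckm at 427 and 1073 CPM (-1.33), Ckmt2 at 218 and 674 CPM (-1.63), Xirp2, an actin-binding protein of the intercalated disc, at 118 and 437 CPM (-1.89), and Ppargc1a, a coactivator of mitochondrial genes, at 36.3 and 173 CPM (-2.25). Ppargc1a rested on 4 and 27 UMIs. Without the Bmp10 carriers Pam stood at 1128 CPM in HFpEF-scr and 2484 CPM in Control, and Ckm at 382 and 725 CPM, which is under 2-fold. With the Hcn4 carriers also left out both were under 2-fold, Pam at 1231 and 1975 CPM and Ckm at 545 and 867 CPM. Myh6 and Ttn had log2 ratios of -0.63 and -0.57 over all the barcodes, -0.36 and 0.01 without the Bmp10 carriers, and -0.84 (ratio interval 0.358 to 0.867) and -1.72 (0.147 to 0.588) in Malat1-poor barcodes without the Hcn4 carrier. Without the Bmp10 and Hcn4 carriers Myh6 stood at 2377 CPM in HFpEF-scr and 6650 CPM in Control, and Ttn at 1412 and 3282 CPM. Within the Malat1-bearing barcodes, 6 in HFpEF-scr and 9 in Control, Ckm was lower at 433 and 1240 CPM (-1.52), Xirp2 at 152 and 503 CPM (-1.73) and Pam at 2577 and 5026 CPM (-0.96), while Myh6 and Ttn had log2 ratios of -0.52 and -0.26. Of these Malat1-bearing barcodes, 1 in HFpEF-scr and 5 in Control were Bmp10 carriers, and 2 in each library were Hcn4 carriers. The Malat1-bearing values are thus not separate from the carrier sets.

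Several genes higher in HFpEF-scr than in Control rested on few barcodes. Acta2 had 293 and 51 UMIs (log2 ratio 3.02) and Tagln, another smooth muscle gene, 179 and 21 (3.59), with 37.5% and 52.5% of the HFpEF-scr UMIs in 1 barcode. Cd74, an antigen-presentation gene, had 109 and 0 UMIs, at least 51.4-fold higher with Control set to the floor of 3 counts over the library, and 98.2% of them lay in 1 barcode. Early response genes Egr1 (43 and 7 UMIs) and Fos (57 and 15 UMIs) had log2 ratios of 3.12 and 2.43. Of the HFpEF-scr UMIs, the 4 barcodes with fibroblast RNA held 1, 28, 8 and 3 of Egr1 and 0, 28, 4 and 22 of Fos. In Malat1-bearing barcodes 6 genes of the early response and heat shock list were measured, 4 of them higher in HFpEF-scr, with a median log2 ratio of 1.31, though Fos had 3 UMIs in HFpEF-scr and 9 in Control there. Txnip, a thioredoxin inhibitor and a gene regulated by FoxO factors, had 47 UMIs in 13 HFpEF-scr barcodes and 33 in 9 Control barcodes (427 and 212 CPM), a log2 ratio of 1.01 with a ratio interval of 1.26 to 3.24. The stress gene Ankrd1 was level over all barcodes, at 1708 and 1709 CPM, but in Malat1-poor ones without the Hcn4 carrier it stood at 4233 CPM in HFpEF-scr and 1814 CPM in Control (log2 ratio 1.22, ratio interval 1.62 to 3.42), and in Malat1-bearing ones at 758 and 1999 CPM (-1.40).

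Gene lists are described by counts and medians only. For HFpEF-FoxO1-sh over HFpEF-scr the median log2 ratio over all measured genes was -0.05, and 4.77% of them were higher and 17.1% lower. Counts such as 1 lower gene of 7 lie near that share. Of the calcium handling list 13 genes were measured, 0 higher and 7 lower, with a median of -1.17. Of the sarcomere list 23 were measured, 0 higher and 7 lower, with a median of 0.08, the lower ones including Myh6, Ttn and the M-band protein Myom1. The nuclear-encoded respiratory chain list had 27 measured and none past 2-fold, with a median of 0.23. Fatty acid use had 13 measured, 3 lower, and a median of -0.52, and the list of glycolysis, creatine and myoglobin 12 measured, 2 higher and 1 lower, with a median of 0.34. The list of FoxO factors and targets had 7 measured and 1 lower, the muscle ubiquitin ligase Fbxo32, at 8 UMIs in HFpEF-FoxO1-sh and 31 in HFpEF-scr, of which 48.4% lay in 1 barcode. The unfolded protein response had 6 measured and 3 lower (Hspa5, Hsp90b1 and Herpud1), with a median of -0.89. The atrial list had 16 measured, 1 higher and 3 lower, ion channels 4 and 3 lower, the conduction list 2, both lower, the ventricular list 4 and 2 higher, natriuretic and stress genes 6 and none past 2-fold, and early response and heat shock genes 11 and 3 lower. In Malat1-poor barcodes the median over all measured genes was 0.13, with 6.93% of them higher and 5.96% lower. The calcium, sarcomere and fatty acid lists had medians of -0.18, -0.03 and -0.03 there. Of their measured genes 1 of 6, 4 of 21 and 2 of 11 were lower, and 0, 0 and 2 higher. These Malat1-poor values include the Hcn4 carrier of HFpEF-scr, which held most of that set's Myh6 and Ttn UMIs. List values without it are not given here.

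For HFpEF-scr over Control the median over all measured genes was 0.02, and 9.2% of them were higher and 6.08% lower. Counts such as 1 lower gene of 25 or 1 higher gene of 9 lie near or below that share. The sarcomere list had 25 measured, 1 lower, and a median of -0.58, and the calcium list 13 measured, 1 higher and 2 lower, with a median of -0.50. The atrial list had 18 measured, 1 higher and 6 lower, with a median of -0.39. Glycolysis, creatine and myoglobin had 13 measured and 4 lower, with a median of -0.42, and the respiratory chain 27 measured, none past 2-fold, with a median of -0.25. Fatty acid use had 14 measured, 1 higher and 2 lower, with a median of 0.45. Ion channels had 9 measured, 1 higher and 3 lower, natriuretic and stress genes 8, 1 higher and 3 lower, the conduction list 7, 2 higher and 1 lower, and the ventricular list 4 and 2 lower, Myl2 and Myl3, which were high in the 3 Control barcodes with Myl2. FoxO factors and targets had 9 measured and 1 higher, Txnip, and the unfolded protein response 8 measured and 2 higher, Xbp1 and Atf6. Early response and heat shock genes had 11 measured and 9 higher, with a median of 1.80, and in Malat1-poor barcodes 2 measured and none past 2-fold, with a median of -0.16. In Malat1-poor barcodes 404 genes were measured, 6.44% higher and 2.72% lower, around a median of -0.03. The sarcomere, calcium and respiratory chain lists had medians of -0.11, -0.20 and -0.14 there. These Malat1-poor values include the Hcn4 carrier of HFpEF-scr. In Malat1-bearing barcodes, where 7.95% of 1006 measured genes were higher and 7.06% lower around a median of -0.00, the sarcomere list had 24 measured and 4 lower, with a median of -0.47, and the atrial list 17 measured and 5 lower, with a median of -0.67. Natriuretic and stress genes had 6 measured and 3 lower there, with a median of -1.18, and fatty acid use 12 measured, 4 higher and 1 lower, with a median of 0.70. The calcium list had a median of -0.06, the respiratory chain -0.20, glycolysis, creatine and myoglobin -0.36, FoxO factors and targets 0.66 and the unfolded protein response 0.71. These Malat1-bearing medians include the Bmp10 and Hcn4 carriers of that set. The 2 comparisons share the HFpEF-scr library.

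**Figure D5:**
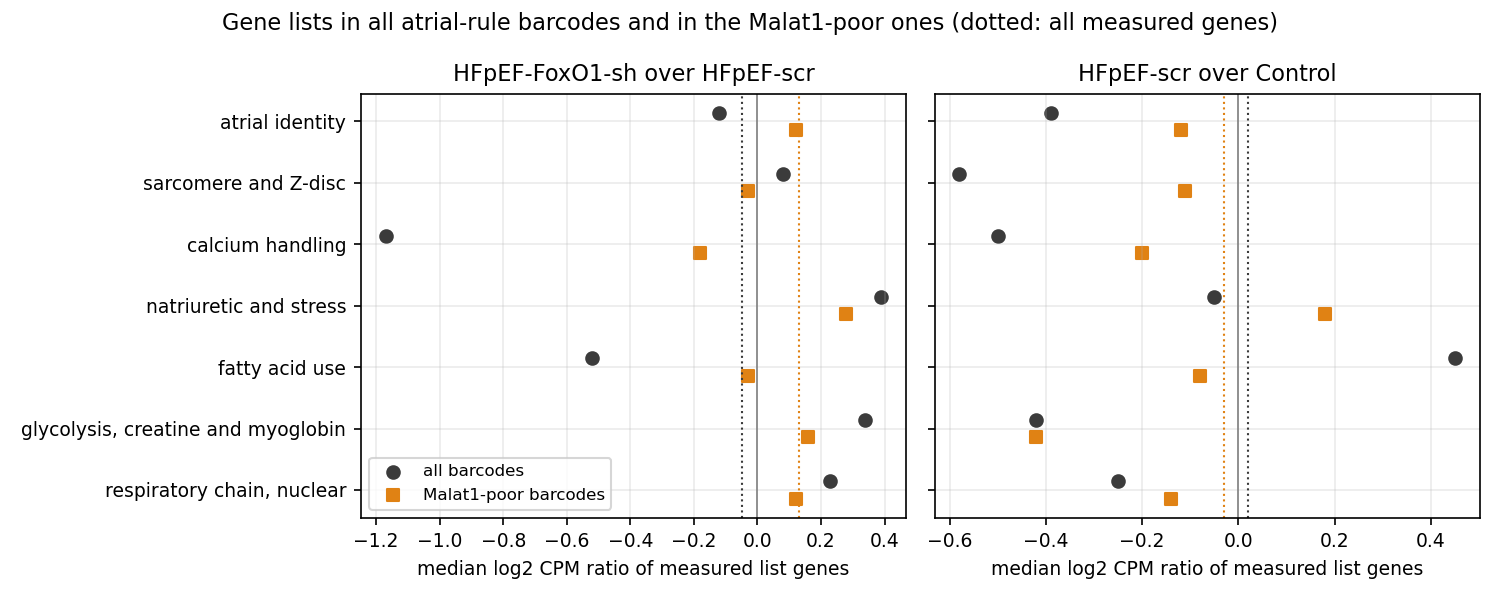
Median log2 CPM ratio (x axis) of the measured genes of 7 lists (rows), for HFpEF-FoxO1-sh over HFpEF-scr (left) and HFpEF-scr over Control (right), over all atrial-rule barcodes (circles) and the Malat1-poor ones (squares), with dotted lines at the median of all measured genes. The x axes differ between the panels. Calcium handling lies at -1.17 over all barcodes on the left and at -0.18 in the Malat1-poor ones. The Malat1-poor values include the Hcn4 carrier of HFpEF-scr.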

How the data were processed

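Single cells were prepared with the 10x Chromium 3' HT v3.1 kit per the labels' protocols, and the files are UMI counts per gene and barcode as deposited. Cell Ranger 6.1.2 and the mm10 build are named in the submitters' processing notes. The tables held 30360 genes and barcodes of at least 500 UMIs. The chosen barcodes and the 21 gene lists were picked with earlier results of these data known. Barcodes under the limits given above were left out, and marked doublets (Scrublet in scanpy 1.11.5, expected rate 12%) were kept. UMIs were summed over the chosen barcodes of a library and divided by their non-mitochondrial UMIs (13 mitochondrial genes left out) to give CPM. Intervals are exact at 95% (Poisson for levels, Clopper-Pearson for shares, conditional binomial for ratios), and UMIs of 1 cell come together, so true errors are wider. A library at 0 was set to a floor of 3 counts for a ratio. Named genes were the 9 genes of the choice, Foxo1, up to 4 per list by level and 3 by ratio in each comparison, and the 6 most changed each way among genes with at least 50 UMIs and a UMI in 10% of the barcodes of the higher library. Genes named for the Malat1, Bmp10 and Hcn4 sets, and the remaining genes of the atrial and conduction lists, were chosen after their values were seen. The summing and the fold rule were tested on simulated data. Alternatives changed the limits, the scaling, the weighting and the sets of barcodes. Python 3.11.15, numpy 2.4.6, scipy 1.17.1 and pandas 2.3.3 were used. Some listed genes are not reported here.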

Additional observations from a re-analysis of the deposited data

How the results depend on the processing

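No paired analysis was possible because each group had 1 library. A limit of 20% mitochondrial UMIs brought the share of atrial-rule barcodes to 0.069% in HFpEF-FoxO1-sh, 0.0805% in HFpEF-scr and 0.0541% in Control. Control, highest under the main limit, was then lowest. The share of measured genes higher in HFpEF-FoxO1-sh than in HFpEF-scr, 4.77%, became 7.85% with CPM of all UMIs, 8.01% with every gene of at least 1 UMI and a pseudocount of 10 CPM, 2.8% with at least 100 UMIs and 7.79% without barcodes of more than 2 fibroblast UMIs. The share lower, 17.1%, became 5.96% in Malat1-poor barcodes, 3.12% in those without Hcn4 carriers, 10.2% without Bmp10 and Hcn4 carriers, 4.35% with at least 100 UMIs and 4.4% with each barcode thinned to 1000 UMIs. For HFpEF-scr over Control the share higher, 9.2%, became 4.11% in Malat1-poor barcodes without Hcn4 carriers, 14% with every gene of at least 1 UMI, 4.83% with at least 100 UMIs and 5.74% without fibroblast RNA. The share lower, 6.08%, became 2.72% in Malat1-poor barcodes, 1.64% in those without Hcn4 carriers, 10.5% with every gene of at least 1 UMI, 3.22% with at least 100 UMIs and 10.6% with each barcode weighted equally. The cause was not tested. The Malat1, Bmp10, Hcn4 and Myl2 sets were chosen after seeing the data. The Foxo1 ratio lay between 0.937 and 2.97 (HFpEF-FoxO1-sh over HFpEF-scr), and between 0.226 and 0.756 when HFpEF-scr was set over Control, and could not be had at 20% mitochondrial UMIs or after thinning. Depth limits rare transcription factors and channels, of which most had under 20 UMIs.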
